A study of Mus musculus with 6 samples.

Results

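The Fc receptors for immunoglobulin G were taken as 6 genes listed by symbol, namely Fcgr1, Fcgr2b, Fcgr3, Fcgr4, Fcer1g and Fcgrt, out of 41079 genes listed. All 6 passed the filter on low counts, which left 14618 genes to test. RNA was sequenced from primary microglia of C57Bl/6N pups aged 1 to 3 days, in 3 control libraries and 3 libraries from optimized cultures. Control cells were kept in serum-free DMEM/F12, and the optimized medium added the human cytokines TGF-β1, IL-34 and CX3CL1 at 100 ng/mL each. The paper also lists cholesterol, insulin-transferrin-selenium and a collagen IV coating for the optimized cultures, which the labels do not name. All cultures came from mixed glia of pooled neonatal brains that had been fed L-929 conditioned medium, rich in M-CSF, before the microglia were shaken off, and all had a brief contact with serum while they settled. These are therefore cultured neonatal cells, and no freshly isolated microglia are among the libraries.

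Fc gamma receptors bind the constant part of IgG and let microglia recognise and take up antibody-coated material. The activating receptors, encoded by Fcgr1, Fcgr3 and Fcgr4, depend on the Fc receptor gamma chain, encoded by Fcer1g, which carries the ITAM motif that recruits the kinase SYK. The inhibitory receptor, encoded by Fcgr2b, carries an ITIM motif that recruits phosphatases and dampens activating signals. Fcgrt encodes the neonatal Fc receptor, which pairs with beta-2-microglobulin in endosomes and returns IgG and albumin to the outside of the cell instead of to lysosomes.

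On GRCm39, 4 of the 6 genes lie on chromosome 1. Fcgr2b lies from 170786186 to 170804177, Fcgr4 from 170846466 to 170857330, Fcgr3 from 170878738 to 170893549 and Fcer1g from 171057141 to 171062219, with Fcgr4 on the plus strand and the other three on the minus strand. Fcgr1 lies on chromosome 3 from 96190225 to 96201338 and Fcgrt on chromosome 7 from 44742412 to 44756819, both on the minus strand. No exon of a member overlaps an exon of another listed gene that could be placed. Of the 41079 symbols listed, 35087 were found in the annotation used here, GENCODE M39, and the rest were not checked. Fcgr2b and Fcgr3 do share sequence, so reads could pass between them: of the windows of 50 bases in the canonical transcripts, 11.1% in Fcgr3 and 4.95% in Fcgr2b also occur in the other gene, against 0 windows shared with Fcgr1 or Fcgr4. How the counting treated reads that fit more than 1 place is not given in the sources used here, and values of Fcgr2b and Fcgr3 are uncertain to that extent. The longest identical stretch, of 129 bases, is shown as the longest of the places where the 2 genes have the same letters. It lies in exons 3 and 4 of both, of 7 exons in Fcgr2b (chr1:170795549-170795650 and chr1:170794243-170794269) and of 5 in Fcgr3 (chr1:170885260-170885361 and chr1:170881736-170881762), and is written as the transcript reads.
Fcgr2b and Fcgr3 shared stretch: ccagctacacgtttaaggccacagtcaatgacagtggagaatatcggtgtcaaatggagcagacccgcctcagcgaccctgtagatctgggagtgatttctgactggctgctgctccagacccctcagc

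The promoters of the 3 members that passed the test are shown next, from 250 bases before to 50 bases after the RefSeq start site, with their places on GRCm39 found by exact match. Fcgr1 is at chr3:96201236-96201535 on the minus strand, Fcgr4 at chr1:170846245-170846544 on the plus strand, and Fcgrt at chr7:44753197-44753496 on the minus strand. Capitals mark every match, on either strand, to 4 motifs: TTCNNNGAA, the form of a gamma-activated site, a form of the interferon-stimulated response element (ISRE) with any 2 bases in its middle, as capitalised first in the Fcgr4 promoter, AGGAAG, a form bound by PU.1 and other ETS factors, and GTCTAGAC, the palindrome bound by SMAD proteins.
Fcgr1 promoter: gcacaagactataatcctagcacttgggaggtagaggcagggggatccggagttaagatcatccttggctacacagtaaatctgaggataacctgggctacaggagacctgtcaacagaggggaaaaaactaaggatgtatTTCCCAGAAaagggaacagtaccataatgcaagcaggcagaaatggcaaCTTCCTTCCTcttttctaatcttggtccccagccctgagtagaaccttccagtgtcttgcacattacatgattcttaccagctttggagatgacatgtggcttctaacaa
Fcgr4 promoter: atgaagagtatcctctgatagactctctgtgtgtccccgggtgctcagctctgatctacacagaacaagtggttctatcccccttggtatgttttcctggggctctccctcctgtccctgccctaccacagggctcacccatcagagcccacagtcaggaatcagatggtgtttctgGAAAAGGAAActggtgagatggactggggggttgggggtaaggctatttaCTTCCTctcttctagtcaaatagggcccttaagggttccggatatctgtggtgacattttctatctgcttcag
Fcgrt promoter: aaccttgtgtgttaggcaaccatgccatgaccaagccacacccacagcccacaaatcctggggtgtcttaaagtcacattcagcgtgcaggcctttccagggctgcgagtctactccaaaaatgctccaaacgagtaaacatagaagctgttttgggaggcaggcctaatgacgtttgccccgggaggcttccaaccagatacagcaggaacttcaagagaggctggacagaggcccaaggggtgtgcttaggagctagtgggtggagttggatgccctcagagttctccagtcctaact

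In the Fcgr1 promoter the TTCNNNGAA form begins 109 bases before the start (-109), and AGGAAG occurs in 2 overlapping places on the opposite strand. The Fcgr4 promoter holds the ISRE form at -73 and AGGAAG, on the opposite strand, at -23. No match to the 4 motifs was found in the Fcgrt window. That window follows the RefSeq start and lies inside the gene as placed above, whose outer end is at 44756819, so sequence at that end was not searched. Over the promoters of all 6 members, TTCNNNGAA occurred in 1, the ISRE form in 1, AGGAAG in 4 and GTCTAGAC in 0, against 8.33%, 3.45%, 35.1% and 0.215% of the 32544 distinct promoter windows in the same table. A match is a likeness of letters and is no measure of binding.

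The libraries held between 20628148 and 27261839 counts, of which the 6 genes took between 0.139% and 0.186%. Replicates of a condition differed by more than counting noise, and optimized library 1 stood apart most, with a chi-square per degree of freedom of 78.4 and 46.2 against optimized libraries 2 and 3, and of at most 25.8 for any other pair within a condition. Each member's change is therefore also given without it. Microglial and macrophage markers were abundant, with a summed level of 7977 to 8606 CPM in control and 12441 to 15940 CPM in optimized libraries over 8 markers, of which 5 rose and 2 fell. Other cells that carry Fc receptors left little RNA. Over 6 markers each, NK and T cells summed to at most 0.710 CPM, mast cells and basophils to at most 0.131 CPM, neutrophils to at most 3.11 CPM, dendritic cells to at most 9.27 CPM and monocytes to at most 7.29 CPM. B cell markers summed to between 40.5 and 70.2 CPM, nearly all from Cd22 and Fcer2a, while Pax5 was at 0. Endothelial markers rose from a range of 81.5 to 97.1 CPM to one of 273.8 to 352 CPM through Flt1 alone. Cldn5 had 2 counts in all and Tek at most 7 in any library. Kdr had 56 to 72 counts per library, Cdh5 23 to 55 and Pecam1 5 to 20. Astrocyte, oligodendrocyte, neuron and fibroblast markers, 6 each, reached at most 36.2, 201.5, 6.34 and 150.7 CPM. In RNA from whole cultures, fewer cells of a type and less RNA per cell cannot be told apart.

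The optimized cultures held less Fcgr4 and, by a smaller step, less Fcgr1 transcript, and more Fcgrt, while Fcgr2b, Fcgr3 and Fcer1g did not pass the test. With calls made at an adjusted p-value under 0.05 (edgeR, quasi-likelihood, Benjamini-Hochberg over all genes tested), 3 of the 6 members were called, 2 lower and 1 higher. Of all genes tested, 29.8% were called, 15.2% lower and 14.7% higher. Higher genes made up 49.1% of these calls with TMM and 32.3% with library size alone. The libraries of the 2 conditions did not overlap in 4 of the 6 members, with optimized libraries above in 2 and below in 2, against 43.9% of all genes, 21.4% above and 22.5% below. The median log2 fold change of the members was -0.097, against 0.0079 over all genes. Levels are given below as CPM after TMM scaling, that is, counts relative to library size, adjusted for differences in library make-up.

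**Figure D1:**
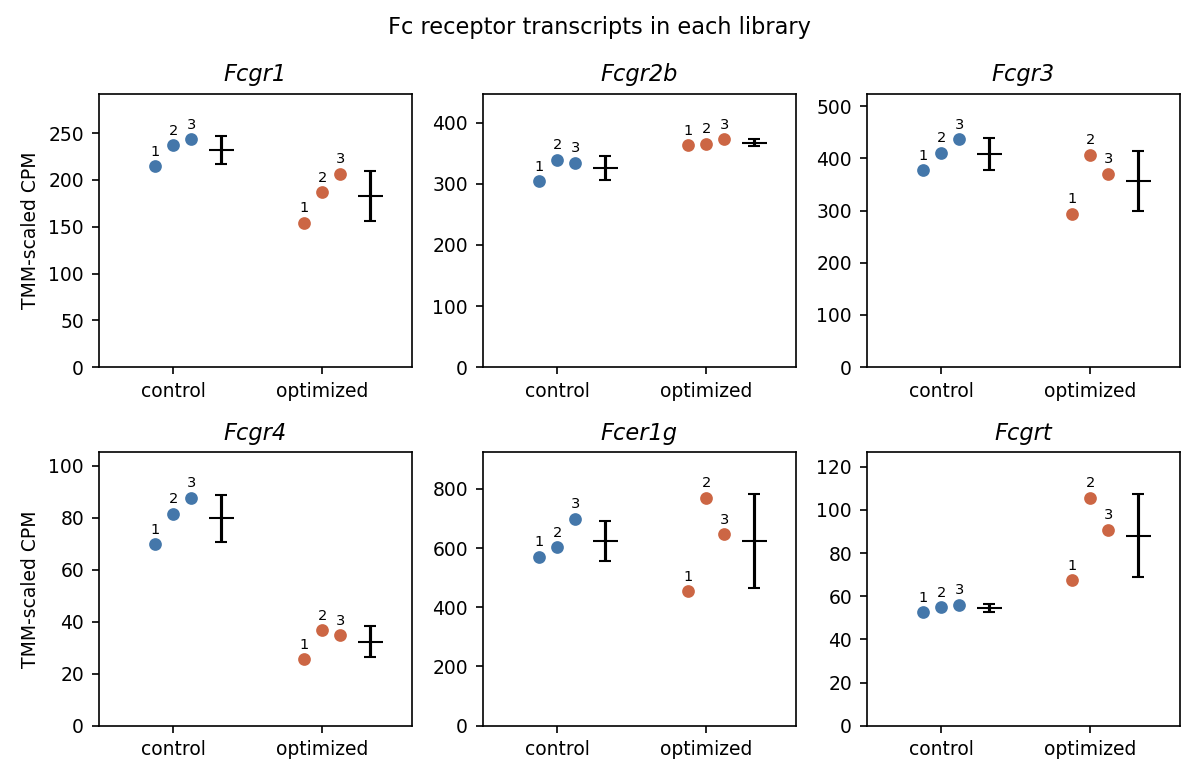
Level of each Fc receptor gene in TMM-scaled CPM (vertical axes from 0, one panel per gene) in 3 control libraries (blue) and 3 optimized libraries (orange); numbers are replicate numbers and the black bar is the mean ± SD. The optimized libraries sit below all control libraries for Fcgr4 (25.6 to 36.7 against 69.8 to 87.7 CPM) and above them for Fcgrt, and overlap with them for Fcgr3 and Fcer1g.

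Fcgr4 encodes an activating receptor found in rodents that binds IgG2a and IgG2b. It had 69.8, 81.6 and 87.7 CPM in control libraries 1 to 3 and 25.6, 36.7 and 34.8 CPM in optimized libraries 1 to 3. Every optimized library lay under every control library, and the gap between the groups was wider than the range within either. The mean fell from 79.7 ± 9.11 to 32.3 ± 5.95 CPM (SD, n = 3 each), or 2.46-fold (log2 fold change -1.30, SE 0.14, edgeR adjusted p = 8.7e-05). Only 3.31% of the genes tested had a lower log2 fold change. Without optimized replicate 1 it was -1.16, with an adjusted p-value of 4.6e-07 by edgeR. The reads behind these levels numbered 1597, 2000 and 2397 in controls against 540, 862 and 719.

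Fcgr1 encodes CD64, the high-affinity receptor for IgG and a classical target of interferon gamma. Its levels were 214.8, 236.9 and 243.6 CPM in control and 154.4, 187.2 and 206.5 CPM in optimized libraries. The highest optimized library lay close under the lowest control library. The mean went from 232 ± 15.1 to 183 ± 26.4 CPM (SD, n = 3 each), and edgeR gave a log2 fold change of -0.34 (SE 0.11, 95% interval -0.60 to -0.088, adjusted p = 0.047). This call sat at the threshold: without control replicate 1, 2 or 3 the adjusted p-values from edgeR were 0.066, 0.146 and 0.135. Without optimized replicate 1 the log2 fold change was -0.24 and the adjusted p-value 0.042 by edgeR.

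Fcgr3 encodes CD16, a low-affinity activating receptor for immune complexes. Control libraries had 376.9, 410.8 and 436.9 CPM and optimized libraries 293.7, 406.9 and 370.6 CPM, so that the groups overlapped and optimized library 1 was the lowest of all. The log2 fold change was -0.19 with a 95% interval from -0.47 to 0.086 and an adjusted p-value of 0.290 by edgeR's quasi-likelihood test. It was -0.070 without optimized replicate 1. The call depended on the scaling, since with library size alone the value was -0.33 with an adjusted p-value of 0.027 by edgeR. TMM and library size alone differed by a median of -0.13 on the log2 scale over all genes.

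Fcgr2b encodes CD32B, the inhibitory receptor. It had 304.2, 339.8 and 334.9 CPM in control and 363.0, 365.8 and 373.3 CPM in optimized libraries, with the 3 optimized libraries close together and above all controls. The log2 fold change was 0.17 with a 95% interval from -0.016 to 0.36 and an adjusted p-value of 0.161 by edgeR, and 0.18 without optimized replicate 1. With library size alone the value was 0.043.

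Fcer1g encodes the gamma chain that the activating receptors share. Its control libraries had 571.1, 603.1 and 700.1 CPM and its optimized libraries 455.0, 770.9 and 648.1 CPM. The optimized libraries held both the lowest and the highest value. The log2 fold change was -0.00034 with a 95% interval from -0.39 to 0.39, so changes up to about that size were not detectable here, and the adjusted p-value was 0.999 by edgeR. Without optimized replicate 1 the value was 0.18, with an adjusted p-value of 0.198 by edgeR.

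Fcgrt encodes the heavy chain of the neonatal Fc receptor. Control libraries lay close together at 52.6, 55.0 and 56.0 CPM, and optimized libraries were higher and more spread at 67.4, 105.7 and 90.7 CPM. The mean rose from 54.5 ± 1.75 to 87.9 ± 19.3 CPM (SD, n = 3 each), or 1.61-fold (log2 fold change 0.69, SE 0.14, edgeR adjusted p = 0.0050). In rank, 88.7% of the genes tested had a lower log2 fold change. Optimized library 1 was the lowest of its group, and without it the value was 0.85, with an adjusted p-value of 1.7e-06 by edgeR. Fcgrt is also expressed by endothelial cells, whose 6 markers summed to 81.5 to 97.1 CPM in control and 273.8 to 352 CPM in optimized libraries. Of these, Flt1 was called higher, Cdh5, Pecam1 and Kdr were tested and not called, and Cldn5 and Tek had too few counts to test. The part of these cells in the Fcgrt result was not tested.

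**Figure D2:**
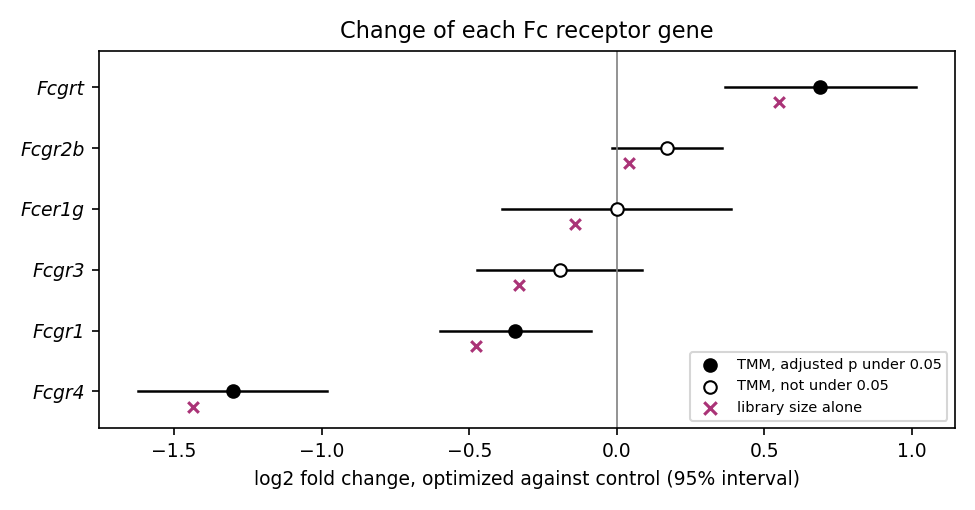
Log2 fold change of each Fc receptor gene, optimized against control (horizontal axis), with its 95% interval; filled points have an adjusted p-value under 0.05 with TMM scaling, open points do not, and crosses give the value with library size alone. The interval of Fcgr4 lies wholly under 0 (-1.62 to -0.98) and that of Fcgrt above it (0.37 to 1.01), and every cross lies to the left of its point.

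Levels were compared between genes by FPKM, which is per length of transcript, and the order depends on the lengths used. The lengths implied by the deposited FPKM values differ from those of the canonical transcripts for Fcgr3 (3180 against 1545 bases) and Fcgrt (1797 against 2932). They also differ for Fcer1g (676 against 959) and, by less, for Fcgr2b (3893 against 3403). In control cultures the order was Fcer1g with 962 ± 69.0 FPKM, Fcgr3 with 134 ± 6.72, Fcgr1 with 90.9 ± 4.68, Fcgr2b with 87.4 ± 5.22, Fcgr4 with 64.7 ± 5.93 and Fcgrt with 31.6 ± 0.888 FPKM (SD, n = 3 each). Fcgr1 and Fcgr2b overlapped there, at 85.9 to 95.2 against 83.1 to 93.2 FPKM, and all other neighbours in the order did not. In optimized cultures the order was Fcer1g with 870 ± 191 FPKM, Fcgr3 with 106 ± 13.6, Fcgr2b with 89.4 ± 3.99, Fcgr1 with 65.0 ± 8.97, Fcgrt with 46.1 ± 8.43 and Fcgr4 with 23.8 ± 3.70 FPKM (SD, n = 3 each). Here Fcgr3 and Fcgr2b overlapped, and in optimized library 1 Fcgr2b was the higher, at 91.3 against 90.5 FPKM. Fcgrt was the lowest of the 6 in each control library, and Fcgr4 was the lowest in each optimized library.

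With canonical lengths, an alternative chosen after seeing the data, scaled counts per kilobase put Fcgr3 at 264 ± 19.5 in control and 231 ± 37.4 in optimized cultures, and Fcgr2b at 95.9 ± 5.67 and 108 ± 1.56 (SD, n = 3 each). Fcgr3 was then above Fcgr2b in every library. Fcgr1, at 87.7 ± 5.70 in control and 69.1 ± 9.99 in optimized cultures (SD, n = 3 each), was then below Fcgr2b in every library. The order of Fcgr1 and Fcgr2b in control cultures thus depends on the lengths used. Fcgrt remained the lowest in each control library and Fcgr4 in each optimized library, although the optimized ranges of these genes overlapped, at 23.0 to 36.04 for Fcgrt and 20.0 to 28.7 for Fcgr4.

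The make-up of the receptor pool was asked next, since the balance of activating and inhibitory receptors sets how strongly a cell answers IgG. Ratios were taken within each library, so that they do not depend on the scaling between libraries. Activating receptors were lower relative to the inhibitory one in every optimized library. The sum of Fcgr1, Fcgr3 and Fcgr4 over Fcgr2b was 3.25, 3.23 and 3.46 in control and 1.83, 2.42 and 2.31 in optimized libraries, a difference of -0.61 in the mean log2 ratio. Of the 3 activating receptors, Fcgr4 moved most against Fcgr2b, from 0.696, 0.728 and 0.794 to 0.214, 0.304 and 0.283, a log2 difference of -1.48. Fcgr1 over Fcgr2b went from 1.04 ± 0.0226 to 0.727 ± 0.0957 (SD, n = 3 each), and Fcgr3 over Fcgr2b from 1.53 ± 0.0598 to 1.19 ± 0.187 (SD, n = 3 each). The last ratio rests on the pair that shares exon sequence. With canonical lengths Fcgr1 over Fcgr2b was 0.915 ± 0.0199 and 0.640 ± 0.0842, and Fcgr3 over Fcgr2b was 2.75 ± 0.108 and 2.14 ± 0.337 (SD, n = 3 each). The sum over Fcgr2b was then 4.32 ± 0.165 and 3.01 ± 0.445 (SD, n = 3 each), a log2 difference of -0.53.

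Relative to the 3 activating receptors that it serves, Fcer1g was higher, at 3.33, 3.17 and 3.48 in control and 3.95, 5.03 and 4.33 in optimized libraries. With canonical lengths the means were 1.57 ± 0.0731 and 1.98 ± 0.225 (SD, n = 3 each). Fcgrt over B2m, the light chain of the neonatal Fc receptor and of MHC class I, was 0.00807, 0.00809 and 0.00703 in control and 0.0133, 0.0157 and 0.0152 in optimized libraries, a log2 difference of 0.93. For B2m itself edgeR gave -0.26 on the log2 scale (adjusted p = 0.186). Among all single genes tested, the conditions did not overlap in 43.9%, and most of the 6 ratios share genes, so they are not separate results. In none of the 6 ratios did the conditions overlap. Each gave p = 0.1, also after adjustment over the 6 ratios, in a two-sided exact permutation test, which is the smallest value that 3 libraries against 3 allow, so these ratios cannot reach 0.05 in this design.

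**Figure D3:**
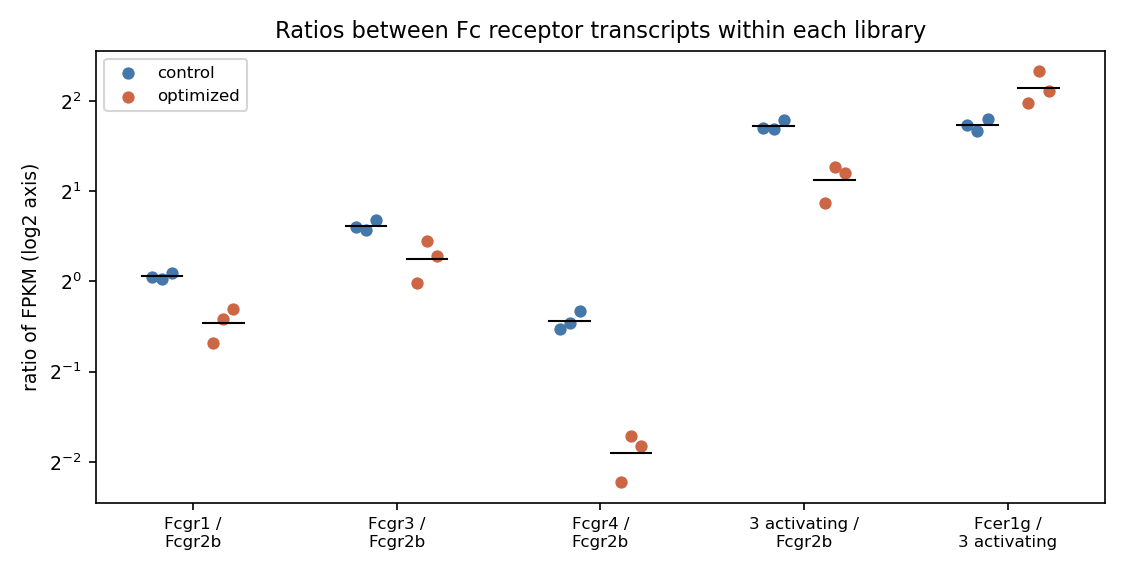
Ratios of FPKM values within each library on a log2 axis, for 3 control (blue) and 3 optimized (orange) libraries, with the mean as a black line. The activating receptors over Fcgr2b are lower in the optimized libraries (1.83 to 2.42 against 3.23 to 3.46 for their sum), and Fcer1g over the activating receptors is higher.

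As a share of the summed FPKM of the 4 Fc gamma receptors, Fcgr4 made up 16.4%, 17.2% and 17.8% in control and 7.56%, 8.91% and 8.54% in optimized libraries. Fcgr2b took 23.5%, 23.6% and 22.4% against 35.4%, 29.3% and 30.2%. The shares of Fcgr3 and Fcgr1 overlapped between the conditions, with means of 35.5 ± 0.454% and 37.2 ± 2.45% for Fcgr3 and of 24.1 ± 0.225% and 22.8 ± 1.45% for Fcgr1 (SD, n = 3 each). With canonical lengths Fcgr3 took 51.8% and 53.1% on average, Fcgr2b 18.8% and 25.1%, Fcgr1 17.2% and 15.9% and Fcgr4 12.2% and 5.80%, and again the conditions overlapped for Fcgr3 and Fcgr1 alone. The sum itself was 352.8, 394.2 and 383.2 FPKM in control and 258.2, 289.8 and 304.7 FPKM in optimized libraries, and the FPKM scale, like library size alone, places genes lower in the optimized libraries than TMM does.

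**Figure D4:**
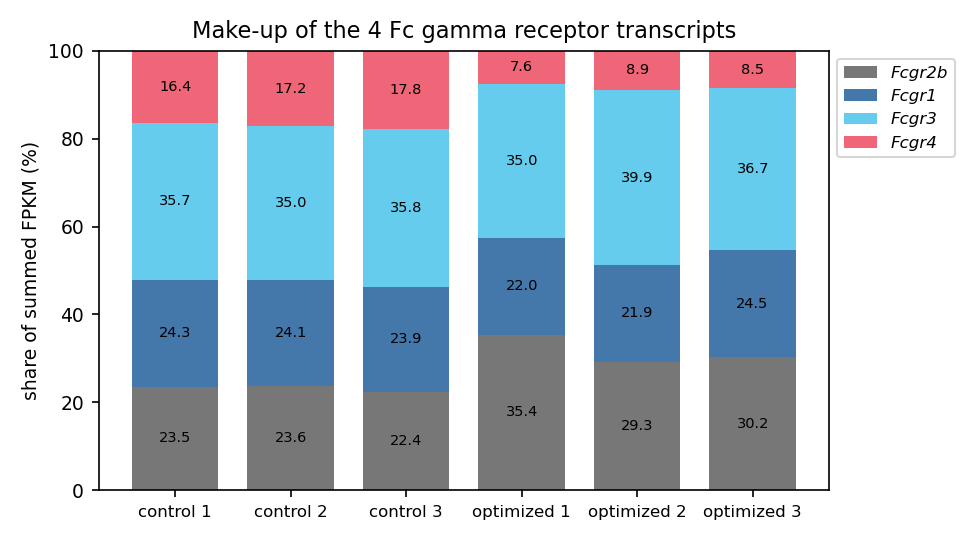
Share of each Fc gamma receptor gene in the summed FPKM of the 4 genes (vertical axis, percent), as a stacked bar per library. The Fcgr4 share is 16.4% to 17.8% in the control bars and 7.56% to 8.91% in the optimized bars, and the Fcgr2b share is larger in each optimized bar than in any control bar.

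Fc receptors of other classes and their relatives were mostly silent or low. Of 15 symbols, 14 were listed and 6 had enough counts to test, of which 2 rose and 1 fell (50% called, against 29.8% of all genes). The symbol not listed, Fcrls, is a name that the paper also uses for Fcrl2. The 6 include B2m, a light chain and not a receptor of another class, which was abundant and not called. Fcrl2, an Fc receptor-like gene, rose from 568 ± 23.7 to 2049 ± 347 CPM (SD, n = 3 each). Fcrlb, a neighbour of Fcgr2b encoding an intracellular relative, had 17, 19 and 30 reads in controls against 45, 54 and 53, and rose by 1.40 on the log2 scale (SE 0.28). Trim21, encoding a cytosolic receptor that binds IgG on incoming viruses, fell by 0.84 on the log2 scale (standard error 0.14). Fcer1a and Fcmr, for IgE and IgM, had 0 counts in every library. Pigr, the receptor that carries polymeric IgA and IgM across epithelium, had 171 counts in optimized library 1 and at most 1 count elsewhere.

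The gamma chain also serves receptors other than those for IgG, and these fell while Fcer1g did not pass the test. Of 12 such genes 10 were tested, and 8 were lower and 0 higher by edgeR (80% called, against 29.8% of all genes), and 9 were lower and 0 higher at an unadjusted p under 0.05, with a median log2 fold change of -1.70. Lilra6 had the lowest value, -4.02 (standard error 0.19), from 416, 442 and 478 reads in controls against 15, 32 and 25. Clec4e, which encodes the mycobacterial glycolipid receptor Mincle, fell from 161 ± 17.9 to 16.7 ± 0.593 CPM, and Pira2, an activating paired receptor, from 92.2 ± 7.29 to 10.4 ± 1.44 CPM (SD, n = 3 each). Pira2, Lilra6 and Pirb belong to a family of near-identical genes, so reads may be shared between them. The 2 tested genes that were not called were the cytokine receptor chains Csf2rb, at -0.19, and Il3ra, at 0.24. Oscar and Gp6, with at most 7 counts in any library, were not tested.

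Adaptor chains that stand beside the gamma chain, a list of ITAM chains and of Hcst, did not pass the test. Tyrobp, encoding DAP12, stood at 642 ± 129 CPM in controls and 902 ± 349 CPM after the optimized medium (SD, n = 3 each), with a log2 value of 0.49 (SE 0.25, edgeR adjusted p = 0.180). In this list 4 of 6 genes were tested and 0 called by edgeR or by DESeq2, with 2 higher at an unadjusted p under 0.05, and without optimized replicate 1 the count was 2.

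Below the activating receptors, 30 signalling genes were tested, of which 13 fell, 5 rose and 12 did not pass (60% called, against 29.8% of all genes), with a median log2 fold change of -0.15. Syk, the kinase that binds the phosphorylated ITAM, was at 300.2 ± 14.4 CPM in controls and at 170 ± 9.23 CPM after the optimized medium (SD, n = 3 each), and was called lower with -0.82 on the log2 scale. Vav3, a guanine nucleotide exchange factor, had the lowest value at -2.08 (standard error 0.13). Among the SRC-family kinases that phosphorylate the ITAM, Src was at -1.66 and Lyn at -0.25, both called lower, while Fgr, with 42 to 60 control and 120 to 124 optimized counts, was called higher at 1.45. Fyn was at 0.00073 and was not called. The other genes that rose were the phospholipases Plcg1 at 1.04 and Plcg2 at 0.75, the kinase Tec at 0.53 and the PI3-kinase subunit Pik3cg at 0.43.

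On the inhibitory side, 18 of 19 genes were tested, of which 10 fell and 4 rose (77.8% called, against 29.8% of all genes), with a median log2 fold change of -0.39. The phosphatases and the DOK adaptors each held genes called in both directions. Inpp5d, encoding SHIP1, the phosphatase that FCGR2B recruits, rose by 0.97 on the log2 scale (SE 0.087), from 258 ± 12.2 to 504 ± 28.4 CPM (SD, n = 3 each). Ptpn6, encoding SHP-1, fell by 0.48 on the log2 scale. Of the DOK adaptors, Dok2 was at -2.67 and Dok1 at -0.77, both called lower, and Dok3 at 0.62 was called higher. The adaptor Pag1 at 0.98 and Sla at 0.59 also rose. The inhibitory receptor Pirb fell by 3.10 on the log2 scale (SE 0.098). Lilrb4a was at -1.10 and its close paralog Lilrb4b at -1.82, both called lower.

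Genes of the phagocytic cup changed at about the rate of all genes, with 6 of 20 called, or 30%, beside 29.8%. The 4 that fell were Myo1g, at a log2 fold change of -0.97, Rac2 at -0.84, Was at -0.69 and Pld2 at -0.57, which encode a membrane myosin, a small GTPase, an activator of actin nucleation and a phospholipase. Dock8 at 0.83 and Wipf1 at 0.44 rose. With library size alone the count was 10.

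Factors known to act on Fc gamma receptor genes changed in both directions, with 7 lower and 6 higher of 16 tested (81.2% called, against 29.8% of all genes). Interferon gamma signalling genes were among those that fell. Irf1 was at -1.58 and Ifngr1, a chain of the interferon gamma receptor, at -1.26 on the log2 scale. Ifngr2, at -0.087, and Jak2, at 0.19, were not called. Irf8, an interferon regulatory factor like Irf1, went the other way and was called higher at 0.55. Spi1, encoding PU.1, was lower at -0.56, a call that was lost without control replicate 3. Tgfbr1 at 1.89 and Cebpa at 1.65 rose.

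Complement genes whose products meet IgG complexes were called in 5 of 10, or 50%, against 29.8% of all genes. C3 was at a log2 fold change of -1.98, C5ar1, the receptor for the anaphylatoxin C5a, at -1.67, Itgax at -0.59 and C3ar1 at -0.52, and Itgam, encoding CD11b, rose with 0.82. The C1q genes, whose product binds IgG directly, were not called, with C1qa at 0.40, C1qc at 0.24 and C1qb at 0.19. Without optimized replicate 1, 9 of the 10 were called.

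**Figure D5:**
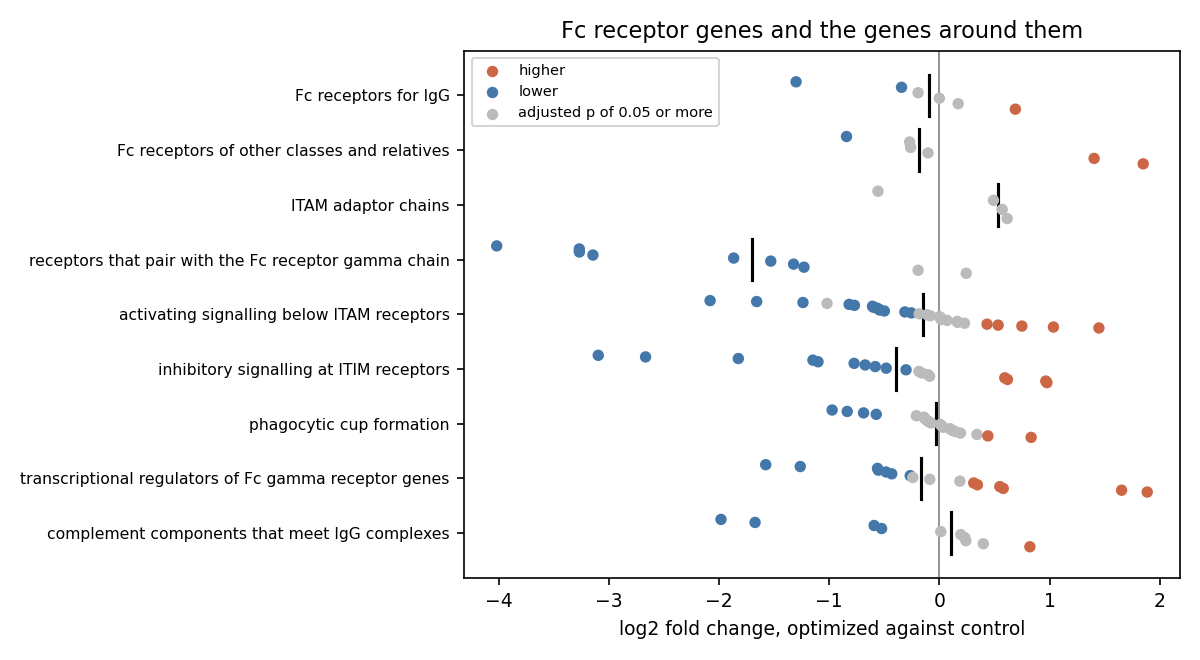
Log2 fold change, optimized against control (horizontal axis), of each tested gene in the Fc receptor set and in 8 lists of related genes; orange is higher and blue lower at an adjusted p-value under 0.05, grey is not called, and the black line is the median of the list. The receptors that pair with the gamma chain lie furthest left as a list, with a median of -1.70.

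The genes most like Fcgr4 over the 6 libraries, by Pearson's r of log2 CPM among 9835 genes with a mean of at least 5 CPM, were Ninj1 (r = 0.999), Hexim1 (r = 0.999) and Dok1 (r = 0.999), with log2 fold changes of -1.35, -0.85 and -0.77. For Fcgrt they were Ranbp9 (r = 0.998), Ifi27 (r = 0.998) and Sdf2l1 (r = 0.997), with 0.21, 0.59 and 0.79. With 3 libraries in each of 2 conditions, r can follow little more than the step between the conditions and the place of optimized library 1. What it followed for each pair was not tested. Among the members, the activating receptors had r = 0.914 for Fcgr1 and Fcgr4, 0.866 for Fcgr1 and Fcgr3 and 0.759 for Fcgr3 and Fcgr4 over the 6 libraries. Fcer1g had r = 0.854 with Fcgr3, 0.529 with Fcgr1 and 0.320 with Fcgr4. Fcgr2b and Fcgrt had r = 0.801, and with Fcgr4 these had r = -0.743 and -0.707.

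Tested genes within 100 kb of a member numbered 46, of which 4 were higher and 6 lower, or 21.7%, under the 29.8% of all genes. Rcn3, 744 bases from Fcgrt, was at a log2 fold change of 0.54 and was not called. Pcp4l1, within that distance of Fcer1g, had the lowest value among them, -2.17 (standard error 0.14).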

How the data were processed

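Libraries were mapped to conditions and replicate numbers by their labels. Paired-end reads had been aligned by the authors (HISAT2, mm39) and assigned to genes with featureCounts in Galaxy, and they deposited raw counts, without normalization, and FPKM values; versions, annotation and strand setting are not given in the sources used here. Replicates are described by the study as biological.

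The count test was edgeR 4.0.16 under R 4.3.3 (filterByExpr, TMM, glmQLFit and glmQLFTest, Benjamini-Hochberg over 14618 genes, threshold 0.05). A standard error is the log2 fold change divided by the square root of F. The common dispersion was 0.0164, a coefficient of variation of 0.128. Alternatives used DESeq2 1.42.0 and limma 3.58.1. The steps were tested on simulated data. Gene positions are from GENCODE M39 on GRCm39, and promoters from RefSeq (GRCm38.p6), which held all 6 members.

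Members, gene lists and motifs were chosen with earlier results of these data known. Named genes are the members, the 3 highest and 3 lowest called genes of each list with a mean of at least 5 CPM, B2m, Syk, Inpp5d, Ptpn6 and Tyrobp, and the 3 genes most like the 2 most changed members. Other genes named were chosen after their values were seen. Some genes that the rule names are not reported here.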

Additional observations from a re-analysis of the deposited data

How the results depend on the processing

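Fcgr4 and Fcgrt held their direction and their call in all 15 alternatives, with log2 fold changes between -1.45 and -1.16 and between 0.51 and 0.85. Leaving out 1 library placed Fcgr1 between -0.44 and -0.24 and the number of members called lower between 1 and 2. Fcgr3 passed without TMM, by library size alone (-0.33), and in limma fits of FPKM logged after adding 1 (-0.34) or 0.1 (-0.34), or limited to a mean FPKM of 1 or more (-0.34). Fcer1g, with no call anywhere, was above 0 with relative log expression factors (0.0022), DESeq2 (0.0022) and at least 10 counts in every library (0.0036), and lay between -0.19 and 0.18 with 1 library left out. Leaving out 1 library placed calls between 0 and 2 for the adaptor chains and between 5 and 9 for the complement genes. Calls among phagocytic cup genes numbered 10 with library size alone and in all 3 limma fits. Over all genes, 1176 were called higher with limma at a mean FPKM of at least 1, against 2142. Of all genes called, 49.1% were higher with TMM, 32.3% with library size alone and 28.4% to 31.3% with limma. The cause of these shifts was not tested. The ratios kept their direction with each library left out. In a ratio of single genes a fixed length cancels, so CPM or canonical transcript lengths could not change its log2 difference. Only the ratios that hold a sum could move. The sum of activating receptors over Fcgr2b went from -0.61 to -0.51 as CPM and -0.53 with canonical lengths. Fcer1g over that sum went from 0.41 to 0.31 and 0.33. Canonical lengths were chosen after seeing the data.

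The replicate number as a block gave 4924 called genes, against 4360, and 1 adaptor chain gene, against 0, and changed no call of a member. Same-numbered libraries had correlations of deviations of 0.273, -0.0123 and 0.185, against -0.294 to 0.189 for pairs with different numbers. With 3 libraries per condition, these values cannot tell whether same-numbered libraries shared a preparation. Depth did not limit the members, whose lowest count was 540.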
